A study of Arabidopsis thaliana with 40 samples.

Results

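The 8 genes described here, classical markers of darkness and sugar starvation in Arabidopsis thaliana, were followed through a pretreatment with ethanol and a night of freezing. They were picked out by locus identifier from a list drawn up with earlier results of these data known, and are 8 of the 27416 genes in the count table: ASN1 (AT3G47340), SEN1 (AT4G35770), DIN10 (AT5G20250), BGLU30 (AT3G60140), DRM1 (AT1G28330), DRM2 (AT2G33830), AT3G15450 and AT5G19120. Of these, 7 passed the filter on low counts and could be tested. BGLU30 did not pass.

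Messenger RNA of shoots was sequenced in 40 libraries made with Lasy-Seq, a multiplexed method for many small RNA samples, with 8 libraries in each of 5 groups. All plants grew in soil pots under long days, and no mutant or transgenic line is named in the labels. The start group was taken from 14-day-old plants before any pretreatment. The water group had its pots standing in water for 6 days, and the ethanol group in 20 mM ethanol for the same 6 days. The frozen water and frozen ethanol groups had the same pretreatments and then spent a night at -4.0 °C before the pots went back to the growth room. Their labels carry a time of 2 h, which is not assigned to the freezing or to the return. The labels give neither the hour of harvest nor whether the replicates of a group came from separate pots, so a p-value here compares a difference with the spread among libraries, part of which may be technical.

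Plant cells that run short of sugar, in darkness or under stress that limits photosynthesis, activate the kinase SnRK1, the plant counterpart of the animal energy sensor AMPK and of yeast Snf1. SnRK1 signalling, in part through bZIP transcription factors, raises the transcripts of genes for nutrient recycling and lowers those for growth, and sugar feeding reverses this. Several of the genes followed here have long been known to rise in darkness and to fall when sugar is supplied. ASN1 makes asparagine, a nitrogen-rich and carbon-poor transport form of nitrogen. SEN1 is a rhodanese-like protein first found in senescing leaves. DIN10 belongs to the raffinose synthase family, and BGLU30 is a beta-glucosidase also known as DIN2. DRM1 and DRM2 are small dormancy-associated proteins related to a transcript of resting pea buds. AT3G15450 is annotated as an aluminum-induced protein with YGL and LRDR motifs, and AT5G19120 as a member of the aspartyl protease family.

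The stretch of 250 bases before the annotated gene start was read for each of the 8 genes from the RefSeq genome and annotation of TAIR10.1 and searched on both strands for short elements known from light-regulated and sugar-regulated plant genes. The I-box GATAAG was present before 6 of the 8 genes, and in 12.3% of the 27443 windows of the same length before protein-coding genes. The sugar-repressive element TTATCC was present before 5 of the 8 and in 12.5% of all windows, and TATCCA before 3 of the 8 and in 13.6%. The G-box CACGTG, a site for bZIP and bHLH proteins, was found before ASN1 and AT5G19120, 2 of the 8, and in 6.49% of all windows. Its core ACGT was found before 4 of the 8 and in 44.1%. The proline-response element ACTCAT was found before DRM1 alone, 1 of the 8, and in 12.3%, and the evening element AAAATATCT before 0 of the 8 and in 2.36%. These counts are not independent, because the I-box read on the opposite strand overlaps the sugar-repressive element, that element overlaps TATCCA, and the G-box holds ACGT. A match describes the letters of a window and not a bound site.

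The windows of 5 genes are printed because they carry most of these matches and belong to genes described below. Each is written 5′ to 3′ on the strand of its gene and ends at the base before the gene start, and capitals mark matches on either strand to any searched element other than a bare ACGT. The ASN1 window is chr3:17441432-17441681 on the minus strand, SEN1 chr4:16944628-16944877 on the plus strand, DRM2 chr2:14310609-14310858 on the minus strand, AT3G15450 chr3:5212734-5212983 on the plus strand and AT5G19120 chr5:6414238-6414487 on the plus strand.
ASN1: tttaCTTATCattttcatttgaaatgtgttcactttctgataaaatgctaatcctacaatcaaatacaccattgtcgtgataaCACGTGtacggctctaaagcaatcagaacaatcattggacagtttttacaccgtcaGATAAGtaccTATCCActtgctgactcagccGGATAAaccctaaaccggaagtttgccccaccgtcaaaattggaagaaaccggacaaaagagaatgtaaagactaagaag
SEN1: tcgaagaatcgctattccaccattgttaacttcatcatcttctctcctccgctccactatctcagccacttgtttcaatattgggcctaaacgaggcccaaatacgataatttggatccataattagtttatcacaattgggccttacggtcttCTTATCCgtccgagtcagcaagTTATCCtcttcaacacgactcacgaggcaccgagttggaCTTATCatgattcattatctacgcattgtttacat
DRM2: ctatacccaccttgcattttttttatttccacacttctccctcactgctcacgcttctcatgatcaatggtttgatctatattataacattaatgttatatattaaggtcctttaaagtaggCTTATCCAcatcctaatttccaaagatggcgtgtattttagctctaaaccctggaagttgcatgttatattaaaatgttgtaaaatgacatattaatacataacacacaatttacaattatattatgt
AT3G15450: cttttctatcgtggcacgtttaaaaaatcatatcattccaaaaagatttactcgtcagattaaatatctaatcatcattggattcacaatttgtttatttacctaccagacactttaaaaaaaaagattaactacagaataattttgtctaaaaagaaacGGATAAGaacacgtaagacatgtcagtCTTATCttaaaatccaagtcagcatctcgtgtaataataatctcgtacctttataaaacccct
AT5G19120: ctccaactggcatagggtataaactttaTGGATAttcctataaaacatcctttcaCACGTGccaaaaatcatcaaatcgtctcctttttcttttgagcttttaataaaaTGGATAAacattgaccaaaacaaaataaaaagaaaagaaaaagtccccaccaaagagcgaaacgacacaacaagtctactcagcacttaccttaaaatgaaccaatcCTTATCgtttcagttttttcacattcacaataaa
In DRM2 a single run, CTTATCCA, holds the I-box, TTATCC and TATCCA together. In AT3G15450 the run GGATAAG holds the I-box and the complement of TTATCC. No searched element was found before BGLU30, and before DIN10 the sole match was ACGT, at 2 positions.

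Library totals ran from 2098593 to 9211896 counts, so 3 counts, used as the floor, correspond to 0.311 to 1.52 CPM, the count per 1000000 counts of the scaled library total. Ethanol replicate 7 and water replicate 6 had the lowest mean correlation of log2 CPM with the other libraries of their groups, 0.927 for each. Every comparison was repeated without them, and counts of called genes that moved by over 1.5 times are given below. Leaf markers were abundant in all groups: the summed level of 6 leaf markers was 72995 ± 3058 CPM (SD, n = 8) in the start group and at least 48032 CPM in every library. Its mean was lower in each later group, at 64550 CPM in water, 58791 in ethanol, 55064 in frozen water and 53511 in frozen ethanol plants. The summed level of 9 root markers was 97.1 ± 20.2 CPM in the start group and 31.8 ± 9.60 CPM in the water group, and 6 of the 9 were at 0 in 35 to 37 of the 40 libraries. This sum follows mainly PYK10, with 9681 counts in the series beside 240 for the next marker, NRT2:1, so its fall does not describe root markers as a set. The trend of level on transcript length also moved with freezing. Its slope on log2 transcript length was taken from log2 CPM minus each gene's mean over the 40 libraries, and so is relative to the series. The slope was between 0.0807 and 0.236 in the 16 frozen libraries and between -0.175 and -0.0207 in the 24 unfrozen ones.

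**Figure D1:**
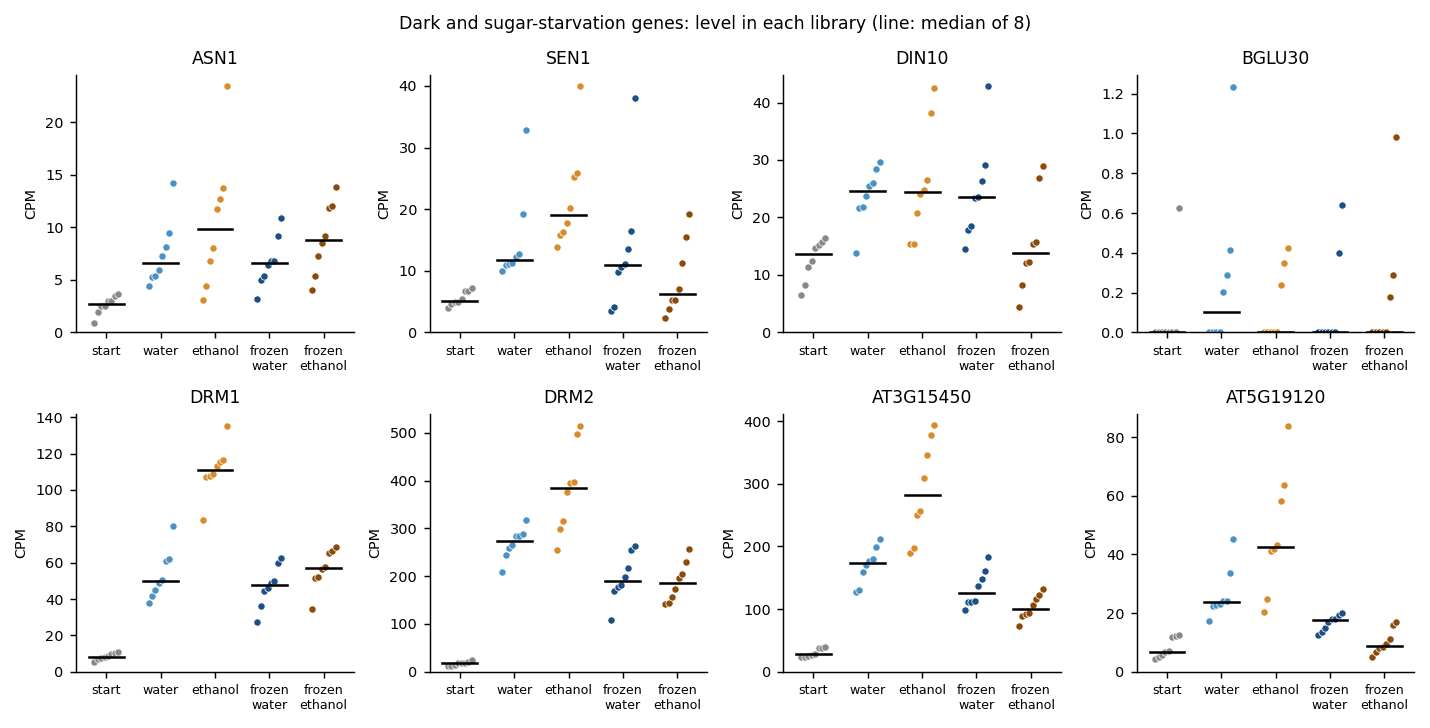
Level of each of the 8 genes in every library, in CPM on a linear axis that starts at 0, with 1 point per library and a line at the median of each group of 8. DRM1, DRM2 and AT3G15450 in all later groups lie above every start library, and BGLU30 stays at or near 0 throughout.

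ASN1, the asparagine synthetase gene, was at 0.929, 2.74 and 3.67 CPM (lowest, median and highest of 8 libraries) at the start. It was at 4.42, 6.60 and 14.2 CPM in the water group and at 3.09, 9.85 and 23.4 CPM in the ethanol group. In the frozen groups it was at 3.18, 6.57 and 10.9 CPM after water and at 4.04, 8.80 and 13.8 CPM after ethanol. All 8 water libraries and all 8 frozen ethanol libraries were above the highest start library, whereas the lowest ethanol and frozen water libraries reached into the start range. The spread was widest in the ethanol group, where replicate 2 held the highest value and replicate 3 the lowest.

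DIN10, the raffinose synthase family gene, was at 6.53, 13.6 and 16.5 CPM at the start, at 13.9, 24.6 and 29.6 CPM in the water group and at 15.3, 24.4 and 42.5 CPM in the ethanol group. After freezing it was at 14.4, 23.5 and 42.9 CPM in the water-pretreated plants and at 4.45, 13.8 and 28.9 CPM in the ethanol-pretreated plants. Every group overlapped with every other. The frozen ethanol median lay at the start level, with 6 of its libraries at or below 15.8 CPM.

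BGLU30, the beta-glucosidase gene, had 33 counts in all 40 libraries together. Its highest level was 1.23 CPM, in water replicate 2, and its median was 0 in 4 of the 5 groups. These levels are at or near the floor, so no change in BGLU30 was detectable at this depth in any comparison.

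SEN1, the rhodanese-like senescence gene, was at 3.98, 5.17 and 7.23 CPM at the start, at 9.95, 11.7 and 32.9 CPM in the water group and at 13.9, 19.0 and 40.0 CPM in the ethanol group. After freezing it was at 3.42, 10.9 and 38.0 CPM following water and at 2.36, 6.15 and 19.3 CPM following ethanol. All water and all ethanol libraries lay above the start range, while both frozen groups spread from below the start range to well above it.

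DRM1, a dormancy-associated gene, was at 5.42, 8.22 and 10.6 CPM at the start, at 37.9, 49.7 and 79.9 CPM in the water group and at 83.6, 111 and 135 CPM in the ethanol group. After freezing it was at 27.2, 47.6 and 62.6 CPM following water and at 34.4, 57.1 and 68.5 CPM following ethanol. The ethanol group stood above all other groups with no overlap, and the start group stood below all others. The water, frozen water and frozen ethanol libraries covered much the same range.

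DRM2, the second dormancy-associated gene, was at 11.3, 17.3 and 23.7 CPM at the start, at 209.1, 274 and 317 CPM in the water group and at 256, 386 and 515 CPM in the ethanol group. After freezing it was at 108, 190 and 264 CPM following water and at 141, 185 and 257 CPM following ethanol. The lowest library of any later group was above 4 times the highest start library, and the later groups overlapped with each other.

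AT3G15450 was at 22.9, 28.1 and 39.3 CPM at the start, at 128, 174 and 211.1 CPM in the water group and at 189, 283 and 393 CPM in the ethanol group. After freezing it was at 98.3, 125 and 183 CPM following water and at 72.5, 101 and 133 CPM following ethanol. All ethanol libraries were above all frozen libraries of either pretreatment, and the start group was below everything else.

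AT5G19120, the aspartyl protease family gene, was at 4.37, 6.85 and 12.7 CPM at the start, at 17.2, 23.7 and 45.3 CPM in the water group and at 20.2, 42.5 and 84.0 CPM in the ethanol group. After freezing it was at 12.3, 17.5 and 19.9 CPM following water and at 4.99, 8.90 and 17.0 CPM following ethanol. The frozen ethanol libraries spread over and above the start range and lay below every unfrozen water and ethanol library.

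During the 6 days in water all 7 tested genes rose. Their median log2 fold change against the start was 1.68, beside -0.0097 over all 16579 genes tested. With edgeR's quasi-likelihood test and Benjamini-Hochberg adjustment at an adjusted p under 0.05, 24.5% of all genes tested were called in this comparison, 12% in the upward direction. DRM2 rose most, by 4.05 ± 0.16 (log2 ± SE) or 16.6-fold (edgeR adjusted p = 2.27e-27). DRM1 rose by 2.69 ± 0.16 (edgeR adjusted p = 2.44e-20) and AT3G15450 by 2.49 ± 0.15 (edgeR adjusted p = 4.79e-20). The rises of AT5G19120, ASN1, SEN1 and DIN10 were smaller, at 1.68 ± 0.24, 1.51 ± 0.32, 1.42 ± 0.35 and 0.90 ± 0.24, with edgeR adjusted p-values of 1.33e-07, 0.000208, 0.00127 and 0.00328. In 6 of the 7 genes the water and start libraries did not overlap, which held for 8.56% of all genes tested, and DIN10 was the exception.

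The plants were also 6 days older in the later groups, so age and standing in water cannot be told apart. In whole shoots, fewer cells of a type and less RNA per cell cannot be told apart either. Genes of the circadian clock moved in the same comparison. All 6 evening-phased clock genes listed were higher in the water group than at the start, beside 12% of all genes called higher. Among them ELF4 rose by 3.74 ± 0.18 and PRR5 by 3.26 ± 0.15 on the log2 scale. Of 3 morning genes tested, LHY and CCA1 fell by 4.05 ± 0.23 and 3.04 ± 0.17, and PRR7 rose by 0.62 (edgeR adjusted p = 1.22e-06). The part of harvest hour, and of the fall in the summed root markers (mainly that of PYK10), in the rise of the starvation genes was not tested.

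The ethanol group was likewise above the start. All 7 tested genes were higher than at the start, beside 15.4% of all genes in that direction and 32% in either, with a median log2 fold change of 2.49. The changes were 4.56 ± 0.16 for DRM2, 3.75 ± 0.16 for DRM1, 3.27 ± 0.15 for AT3G15450, 2.49 ± 0.24 for AT5G19120, 2.03 ± 0.31 for ASN1, 1.93 ± 0.34 for SEN1 and 0.99 ± 0.24 for DIN10. The start libraries serve both comparisons, so the similarity of their order is not separate evidence.

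Set directly against water, 6 days of ethanol raised 4 of the 7 tested genes, where 10% of all genes were called and 4.04% were called higher. DRM1 rose by 1.07 ± 0.13 or 2.09-fold (edgeR adjusted p = 9.30e-08), with no overlap between the groups, a separation seen in 1.75% of all genes. AT5G19120 rose by 0.82 ± 0.21 (edgeR adjusted p = 0.00746), AT3G15450 by 0.77 ± 0.13 (edgeR adjusted p = 3.17e-05) and DRM2 by 0.50 ± 0.13 (edgeR adjusted p = 0.00793), each with overlapping libraries. ASN1, SEN1 and DIN10 did not pass the test. Their differences were 0.52 (95% interval -0.043 to 1.09), 0.51 (-0.12 to 1.14) and 0.10 (-0.37 to 0.56), so a rise of the size seen in DRM1 lies inside the intervals of ASN1 and SEN1 and outside that of DIN10. The intervals are for single genes and are not adjusted for the number of genes. Of the 6 evening clock genes 3 were also higher with ethanol, ELF4 by 0.93 ± 0.14, and their part in these differences was not tested.

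The 5 groups include no unfrozen one that passed the added night. Cold, that night and harvest hour therefore cannot be told apart in either freezing comparison. Of 6 evening clock genes 1 was called in each, GI, higher by 0.65 after water and 0.45 after ethanol. Of 3 morning genes tested 1 was called in each, PRR7, higher by 0.48 and 0.31. The part of harvest hour in the falls below was not tested. Freezing after water was followed by lower levels of 2 genes. DRM2 fell by 0.45 ± 0.13 (edgeR adjusted p = 0.0174) and AT5G19120 fell by 0.65 ± 0.23 (edgeR adjusted p = 0.0434), these being 2 of the 7, in a comparison that called 14% of all genes and 6.97% downward. AT3G15450 was at -0.34 ± 0.14 (edgeR adjusted p = 0.0828), DRM1 at -0.17 ± 0.13, SEN1 and ASN1 each at -0.12 with SEs of 0.32 and 0.29, and DIN10 at 0.06 ± 0.23. The median was -0.17, beside 0.0031 over all genes. With each library's trend on transcript length removed, which left 345 calls over all genes (2.08%) in place of 2316, neither these nor the other genes of the set passed in edgeR: DRM2 was then at -0.26 (adjusted p = 0.400) and AT5G19120 at -0.56 (adjusted p = 0.241). In the main fit 3 of the 7 had an unadjusted p under 0.05, and DESeq2 called 1. The call of AT5G19120 was also lost without water replicate 7 or 8 or frozen water replicate 2, 3, 4, 5 or 7 (edgeR adjusted p from 0.0523 to 0.136), and AT3G15450 passed without water replicate 1 or 6 or frozen water replicate 8 (edgeR adjusted p from 0.0298 to 0.0483).

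Freezing after ethanol was followed by lower levels of 6 of the 7 genes, where 9.79% of all genes were called and 5.68% were called lower. The median log2 fold change was -1.02, beside 0.014 over all genes tested. AT5G19120 fell by 2.19 ± 0.23, so that its level before freezing was 4.56 times that after it (edgeR adjusted p = 4.76e-10). AT3G15450 fell by 1.49 ± 0.14 (edgeR adjusted p = 1.32e-11), SEN1 by 1.27 ± 0.32 (edgeR adjusted p = 0.00551), DRM2 by 1.02 ± 0.13 (edgeR adjusted p = 1.91e-07), DRM1 by 0.97 ± 0.13 (edgeR adjusted p = 2.52e-07) and DIN10 by 0.73 ± 0.23 (edgeR adjusted p = 0.0333). ASN1 was the gene that did not pass, at -0.25 (95% interval -0.79 to 0.30). Frozen and unfrozen ethanol libraries did not overlap for DRM1, AT3G15450 and AT5G19120, 3 of the 7, beside 2.14% of all genes tested. The same 6 genes were called with the length trend removed, which called 4.16% of all genes. DIN10 was no longer called without ethanol replicate 2 or 7 or frozen ethanol replicate 1, 2, 3 or 6 (edgeR adjusted p from 0.0595 to 0.0986).

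AT3G15450 lies opposite AT3G15460, which it overlaps, and neither labels nor notes state if strand was used in counting. AT3G15460 had 6.55 to 16.7 CPM and went the other way in the ethanol comparison before freezing, at -0.47 ± 0.15 (edgeR adjusted p = 0.0307), and stood at 0.34 ± 0.15 on freezing after ethanol (edgeR adjusted p = 0.149). The genes opposite ASN1 and DIN10, AT3G47341 and AT5G20260, had 0 and 16 counts in the whole series.

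The freezing effects after ethanol and after water were compared directly as a difference of differences. Over all genes this test called 22, or 0.133% of those tested, and 21 of these had the lower value after ethanol (0.127%). AT3G15450 was 5th by p-value, with a difference of -1.15 ± 0.19 (edgeR adjusted p = 0.000676), and AT5G19120 was 12th, with -1.54 ± 0.32 (edgeR adjusted p = 0.0173). For both genes the fall on freezing was thus larger after ethanol than after water by this test. The same difference is that of ethanol from water in frozen plants, -0.37 and -0.72, less that before freezing, 0.77 and 0.82. The unfrozen ethanol libraries enter the rise over water, the fall on freezing and this difference, so these are not separate evidence. DRM1 had -0.80 ± 0.19 and missed the threshold (edgeR adjusted p = 0.0511). It passed under DESeq2 size factors, without the filter on low counts, under DESeq2 itself and without organelle genes (adjusted p from 0.0232 to 0.04996). It also passed without water replicate 6, 7 or 8, ethanol replicate 3, frozen water replicate 4 or 7, or frozen ethanol replicate 3 or 7, and over all 32 single omissions the edgeR adjusted p ran from 0.00822 to 0.136. SEN1, DIN10, DRM2 and ASN1 had -1.14 ± 0.45, -0.79 ± 0.33, -0.57 ± 0.19 and -0.12 ± 0.40 and did not pass, so a different freezing effect was not shown for these 4. The call of AT3G15450 and that of AT5G19120 held with the length trend removed (edgeR adjusted p = 0.000292 and 0.0150) and with any single library left out, where the adjusted p reached at most 0.00266 and 0.0484.

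After the freezing night 0 of the 7 genes passed edgeR's test between ethanol-pretreated and water-pretreated plants, in which 5.26% of all genes passed. The number with an unadjusted p under 0.05 was 3, and DESeq2 also called 0. The estimates were -0.72 ± 0.23 for AT5G19120 (edgeR adjusted p = 0.0595), -0.69 ± 0.23 for DIN10 (edgeR adjusted p = 0.0688), -0.63 ± 0.32 for SEN1, -0.37 ± 0.14 for AT3G15450 (edgeR adjusted p = 0.105), -0.07 ± 0.13 for DRM2, 0.26 ± 0.13 for DRM1 and 0.40 ± 0.28 for ASN1. The missed threshold does not show equal levels, since the single-gene 95% intervals of AT5G19120 (-1.19 to -0.25) and DIN10 (-1.16 to -0.23) lie below 0. AT5G19120 passed without frozen ethanol replicate 4 or 7 (edgeR adjusted p = 0.0276 and 0.0230), and DIN10 without frozen water replicate 4 or frozen ethanol replicate 7 or 8 (edgeR adjusted p from 0.0132 to 0.0454).

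Ordering the 5 group means showed which genes returned towards the start. DRM1, DRM2 and AT3G15450 stayed well above it in frozen ethanol plants, by 2.78 ± 0.16, 3.54 ± 0.16 and 1.78 ± 0.15 on the log2 scale, and so did ASN1, by 1.79 ± 0.31. These 4 of 7 passed, beside 16.5% of all genes tested that were higher in that comparison and 34.1% called in either direction. SEN1, DIN10 and AT5G19120 in frozen ethanol plants did not differ from the start by the test, at 0.66 (95% interval -0.039 to 1.37), 0.26 (-0.22 to 0.75) and 0.30 (-0.20 to 0.81). In frozen water plants all 7 were still above the start, beside 16.9% of all genes called higher and 33.9% in either direction. The start group was lowest and the ethanol group highest in mean level for all 7 genes. Next to each other in that order, ethanol and water differed for DRM2, AT3G15450 and AT5G19120, and water and frozen water for DRM2 and AT5G19120. For ASN1 the 4 later groups could not be ranked because no neighbouring pair among them differed. For SEN1 no neighbouring pair differed, the step from frozen ethanol to the start included.

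Libraries of the same group that were high in one of these genes tended to be high in the others. After removing each group's mean from log2 CPM, all 21 pairs among the 7 tested genes had a positive Pearson's r over the 40 libraries, from 0.144 to 0.761 with a median of 0.457. Libraries were permuted within their groups 100000 times in a two-sided permutation test, and after adjustment over the 21 pairs 16 passed with Pearson's r and 16 with Spearman's rho. The strongest pair was AT3G15450 with AT5G19120 (r = 0.761, rho = 0.756, permutation adjusted p = 0.000105 for both, from the smallest p these resamples can give). DRM2 with AT3G15450 followed (r = 0.735, rho = 0.705, permutation adjusted p = 0.000105 for both). The weakest was SEN1 with DRM1 (r = 0.144, rho = 0.198, permutation adjusted p = 0.443 and 0.243). Leaving out the 2 libraries farthest from the median of the first gene, all 21 stayed positive with a median of 0.420, and AT3G15450 with AT5G19120 had r = 0.709. The values of a pair come from the same library and share its depth and scaling. The same counts were not made for pairs of other genes, so this covariation is not shown to be particular to the set.

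**Figure D2:**
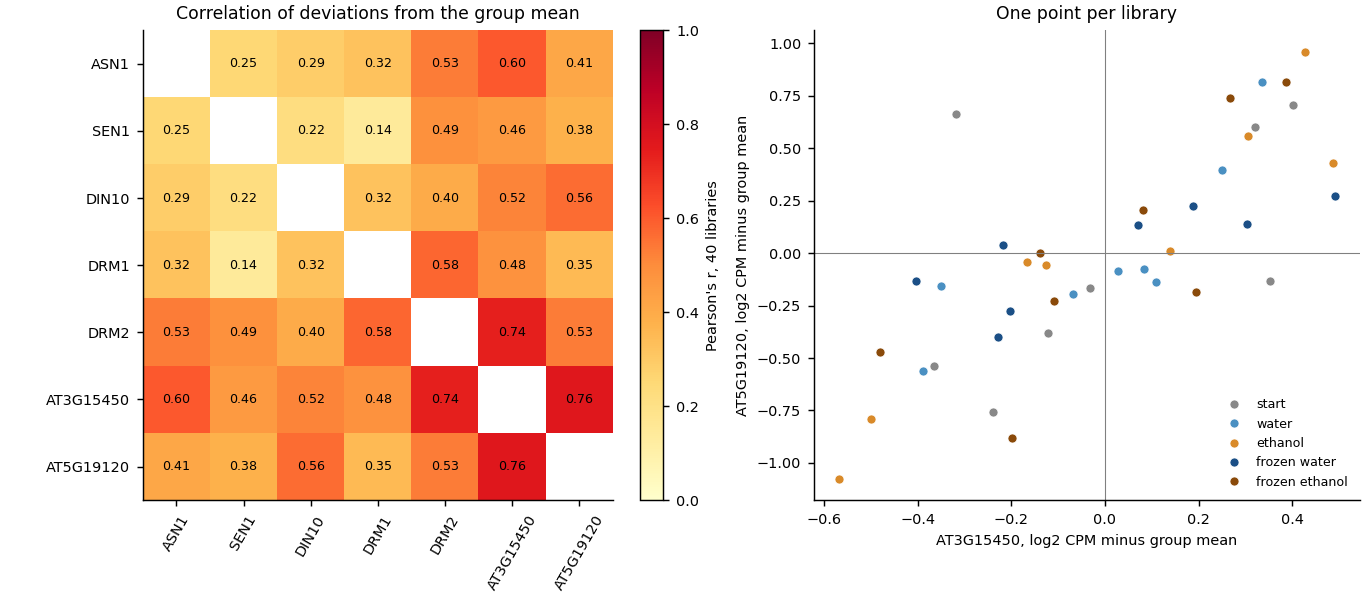
Left, Pearson's r between the 7 tested genes over 40 libraries after subtracting each group's mean log2 CPM, from 0 (pale) to 1 (dark); right, the strongest pair, AT3G15450 against AT5G19120, with 1 point per library coloured by group. All 21 values are positive and the points of every group run along the same diagonal, apart from 1 start library at the upper left.

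The genes whose log2 CPM followed the set most closely over the 40 libraries, group differences included, were found by Pearson's r and are given as a description. For the mean of the 7 they were AT5G24490, annotated as a 30S ribosomal protein (r = 0.951), AT3G15630 (r = 0.950) and AT3G10020 (r = 0.940). MEE14 was nearest to DRM1 (r = 0.974) and to DRM2 (r = 0.983). AT3G10020 (r = 0.973) and AT1G56220, another dormancy and auxin associated family member (r = 0.961), were nearest to AT3G15450, and AT1G25550, a myb-like factor (r = 0.869), and AT1G23390, a Kelch repeat F-box protein (r = 0.868), to AT5G19120. The genes nearest to ASN1, SEN1 and DIN10 were less alike, with AT5G24490 at r = 0.794, AT1G52220 at 0.765 and AT2G45180 at 0.768. AT3G10020 and AT1G23390 also passed the test of the difference in freezing effects, with -0.89 ± 0.14 (edgeR adjusted p = 0.000496) and -0.94 ± 0.16 (edgeR adjusted p = 0.00142). Both were picked for following AT3G15450 and AT5G19120 over the same libraries, so a shared difference is partly built in by that choice.

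A further 19 genes known to rise in starvation were listed. Of the 18 tested, 10 were higher and 1 was lower after 6 days in water, with a median of 0.46, beside 12% of all genes called higher. TPS11, a trehalose phosphate synthase-like protein, rose by 1.48 ± 0.17, the chaperone gene J8 by 0.99 ± 0.12, the glutamate dehydrogenase gene GDH2 by 0.81 ± 0.15 and the autophagy gene ATG8E by 0.60 ± 0.11. The single fall was that of DIN9, a phosphomannose isomerase gene, by 2.11 ± 0.45 (edgeR adjusted p = 0.000210), with medians of 3.12 CPM at the start and 0.739 CPM in water, near the floor; it was named after its values were seen. Ethanol against water raised 2 of the 18, J8 by 0.81 ± 0.12 and UGE1, a UDP-glucose epimerase gene, by 0.51 ± 0.13, beside 4.04% of all genes. On freezing 3 were lower after water and 6 after ethanol, with medians of -0.03 and -0.40, beside 6.97% and 5.68% of all genes. Of the 3 after water, the call of J8 was lost in 9 of 16 single omissions in edgeR. Freezing values of this list, of the lists below and of the relatives come from the main fit. They were not taken with the transcript length trend removed, which lowered the number of calls over all genes in both freezing comparisons. After ethanol J8 fell by 1.21 ± 0.12, ATG8E by 0.73 ± 0.11, UGE1 by 0.64 ± 0.12 and BT2, a BTB and TAZ domain gene, by 2.03 ± 0.48. BT2 had low levels, with a median of 2.37 CPM and a highest library of 17.7 CPM in ethanol and a median of 0.841 CPM in frozen ethanol plants, and without ethanol replicate 7 its value was -1.41 (edgeR adjusted p = 0.0336). J8 was at 352, 415 and 499 CPM in ethanol and at 137, 178 and 234.7 CPM in frozen ethanol plants. These libraries did not overlap, which held for 2.14% of all genes tested. J8 passed the test of the difference in freezing effects at -0.87 ± 0.16 (edgeR adjusted p = 0.00481).

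Among 15 genes for SnRK1 subunits and bZIP factors, the regulators themselves, 5 were called after 6 days in water, 3 higher and 2 lower, with a median of 0.09, beside 24.5% of all genes called. BZIP53 and the beta subunit gene AKINBETA1 each rose by 0.74, with SEs of 0.09 and 0.14, the gamma-type subunit gene KING1 rose by 0.36 ± 0.12, and bZIP2 fell by 0.36 ± 0.09. Ethanol against water raised 3, beside 4.04% of all genes: KING1 by 0.43 ± 0.12, the catalytic subunit gene KIN10 by 0.42 ± 0.13 and bZIP44 by 0.97 ± 0.33. On freezing after ethanol 4 of the 15 were lower, beside 5.68% of all genes. KING1 fell by 0.45 ± 0.12, bZIP63 by 0.64 ± 0.17, AKINBETA1 by 0.42 ± 0.14 and BZIP53 by 0.27 ± 0.09. Several of these calls did not hold with 1 library left out: in edgeR, of 16 single omissions each, that of bZIP44 was lost in 11, that of BZIP53 on freezing in 10 and that of AKINBETA1 on freezing in 9. That of KIN10 was lost without water replicate 5 or 6 or ethanol replicate 1 or 6, and that of KING1 in water without start replicate 4 or water replicate 3 or 8. SnRK1 acts through phosphorylation, which transcript levels do not measure. Of 14 genes for the breakdown of branched-chain amino acids, another process of starved plants, 1 was higher (BCAT2, by 1.41 ± 0.49) and 1 lower (HML1, which fell by 0.48 ± 0.14) after water, and the median was 0.07. The call of BCAT2 was lost in 6 of 16 single omissions.

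Some genes known to rise when sugar is supplied were lower over the 6 days. Of 9 tested, 4 fell in water, with a median of -0.78, beside 12.5% of all genes called lower. All 4 belong to flavonoid and anthocyanin synthesis: DFR fell by 2.65 ± 0.28, LDOX by 2.51 ± 0.23, F3H by 2.45 ± 0.16 and CHS by 2.23 ± 0.12. In frozen plants 6 of the 9 were higher with ethanol than with water, with a median of 0.76, beside 2.42% of all genes called higher, and 3 were not called. Among the 6 were the same 4 genes, DFR by 1.52 ± 0.29, LDOX by 1.11 ± 0.24, F3H by 0.76 ± 0.17 and CHS by 0.71 ± 0.11. Outside these 4, a call was lost in 7 of 16 single omissions and another in 3 of 16. CHS was at 75.7, 102 and 127.5 CPM in frozen water and at 127.8, 166 and 222.7 CPM in frozen ethanol plants, so the ranges of these groups nearly met. Light and cold also regulate these genes.

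**Figure D3:**
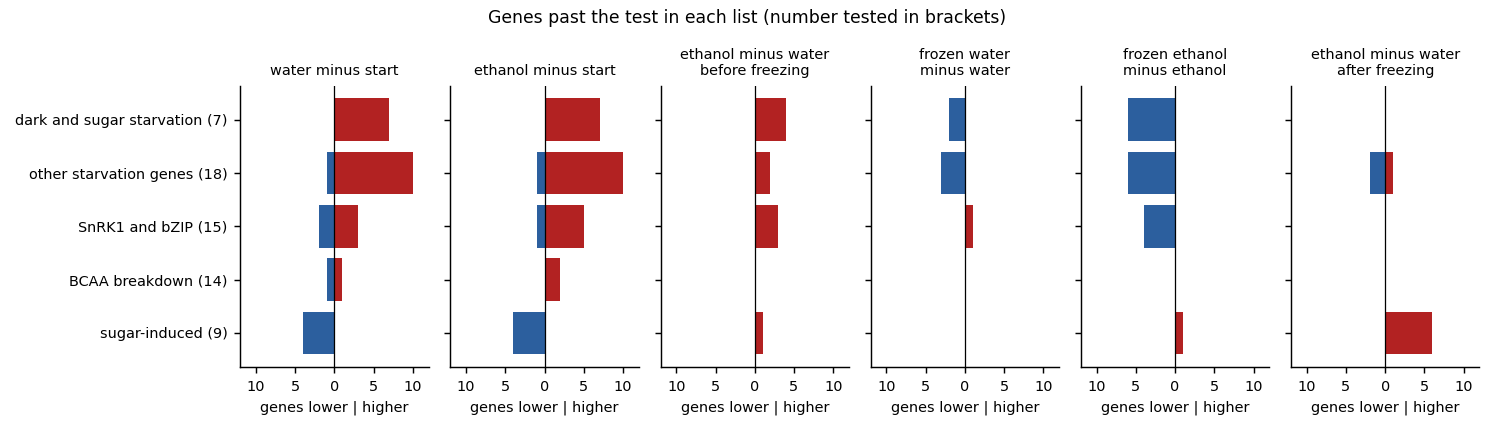
Number of genes called higher (red, to the right) and lower (blue, to the left) by edgeR in each of 5 gene lists and 6 comparisons, with the number tested in brackets; BCAA stands for branched-chain amino acids. The dark and sugar starvation genes have 7 higher in the first panel and 6 lower in the fifth, and the sugar-induced list has 6 higher in the last.

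Close relatives of the 8 genes did not all follow them, and 11 of the 23 listed could be tested. AT1G56220, related to DRM1 and DRM2, rose 2.15-fold over the 6 days in water (SE of the log2 change 0.07) and fell by 0.47 ± 0.07 on the log2 scale on freezing after ethanol. AILP1, an aluminum-induced-like protein related to AT3G15450, rose by 0.80 ± 0.08 and fell by 0.40 ± 0.08 in the same comparisons. ASN2, the second asparagine synthetase gene, fell by 1.00 ± 0.10 in water, where ASN1 rose. It was a further 0.75 ± 0.11 lower with ethanol than with water (log2 -0.75, edgeR adjusted p = 2.11e-06). By the same test ASN2 was lower in frozen ethanol than in frozen water plants (-0.82 ± 0.11, edgeR adjusted p = 3.71e-07). ASN1 did not pass in either of these ethanol comparisons, at 0.52 and 0.40. RS5, a raffinose synthase gene related to DIN10, fell by 0.89 ± 0.18 in water and rose by 0.81 ± 0.18 on freezing after ethanol, where DIN10 fell. SIP2, another gene of that family, rose by 0.60 ± 0.14 in water.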

How the data were processed

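The authors deposited a table of raw read counts per gene, whole numbers without normalization, for shoots in 40 libraries. Per the submitters' processing notes the tools were bcl2fastq, Trimmomatic, HISAT2, featureCounts and DESeq2 with genome build TAIR10. Their versions, strand setting and treatment of reads with several matches were not in those notes. The authors' second deposited table is a normalized signal in which each library equals its counts times a constant (largest coefficient of variation 1.65e-10), and it served only for that check.

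Libraries were grouped by title. The test was that of edgeR 4.0.16 (R 4.3.3): 16579 of 27416 genes passed filterByExpr over the 5 groups, 2296 had no count, TMM scaling was applied, and 1 quasi-likelihood model with a mean per group gave every comparison. Calls used a Benjamini-Hochberg adjusted p under 0.05 over all genes tested. SEs were derived from the log2 fold change and its F value. Intervals of 95% use the t distribution. CPM came from edgeR's cpm function, and log2 CPM had a prior count of 2. A chi-square ratio between libraries of the same group was 3.49 to 21.5 per degree of freedom, above counting noise, so none was treated as the same library sequenced again. The ratio does not tell biological from technical spread.

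Gene positions, products, transcript lengths and sequences came from RefSeq for TAIR10.1, which matched 26714 identifiers. The element TTATCC was added to the motif search after first counts were seen. Covariation was planned for 28 pairs and run on 21, as BGLU30 was untested.

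The 8 genes, the gene lists and the tests were chosen with earlier results of these data known. Named genes were the 8, up to 4 per further list with the smallest p in a comparison, relatives of the 8, and the 3 genes most correlated with each. Alternatives were DESeq2 size factors in edgeR, no filter on low counts, DESeq2 1.42.0, only the groups compared, replicate number as a block, each library left out in turn, the transcript length trend removed (natural spline, 4 degrees of freedom), thinning to 2098593 counts, no organelle genes, and omission of both water replicate 6 and ethanol replicate 7. Leaving out each library for the genes of the further lists was added after the data were seen. The edgeR step was tested on simulated data.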

Additional observations from a re-analysis of the deposited data

Results flagged for a closer look

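Within groups of 8 libraries, 2 values out of 35 groups stood apart by Dixon's ratio, taken on log2 CPM, at its 95% limit; chance alone does this in about 1 group in 20. DIN10 in water replicate 1 was the lowest of its group at 13.9 CPM, with the next library at 21.6 CPM (ratio 0.583 on log2 CPM, 0.492 on CPM). DRM1 in frozen ethanol replicate 5 was the lowest of its group at 34.4 CPM, with the next at 51.5 CPM (ratio 0.586 on log2 CPM, 0.502 on CPM). On the linear CPM scale neither passed the limit, and 3 other values did.

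The effect of freezing differed between ethanol-pretreated and water-pretreated plants, by edgeR's test of the difference itself, for 5 of the genes described, beside 0.133% of all genes tested. AT3G10020 and AT1G23390 were named because they followed AT3G15450 and AT5G19120 over the same 40 libraries, group differences included. Their calls are therefore not separate evidence. AT3G15450 differed by -1.15 ± 0.19 (edgeR adjusted p = 0.000676), AT5G19120 by -1.54 ± 0.32 (edgeR adjusted p = 0.0173), J8 by -0.87 ± 0.16 (edgeR adjusted p = 0.00481), AT3G10020 by -0.89 ± 0.14 (edgeR adjusted p = 0.000496) and AT1G23390 by -0.94 ± 0.16 (edgeR adjusted p = 0.00142), all with the lower value after ethanol.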

How the results depend on the processing

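The numbers of called genes over the 6 days in water, over the 6 days in ethanol, between ethanol and water before freezing, on freezing after ethanol and for the difference of freezing effects stayed within 1.5 times their main values under every alternative run. The number of called genes on freezing after water was 2; it became 1 with DESeq2 and 0 with the transcript length trend removed, and ran from 1 to 3 with single libraries left out. For ethanol against water after freezing the number was 0; it became 1 without the filter on low counts, 1 with only the groups compared, 1 without water replicate 6 and ethanol replicate 7, and 2 with the replicate block (AT5G19120 and DIN10), and ran from 0 to 2 with single libraries left out. The replicate block changed no other call of the 7 genes. Libraries with the same number did not deviate together on average (mean r of 0.013, against -0.0018 for other pairs of different groups), so the numbers were not taken as pairs. The highest same-numbered r was 0.325, within replicate number 6, beside at most 0.155 for the other pairs. No called value changed sign. Of the single-gene values under other settings, 423 kept their call, 11 gained one and 7 lost it, and DIN10 on freezing after ethanol lost it when libraries were thinned, with only the groups compared, and when water replicate 6 and ethanol replicate 7 were absent. The causes of these changes were not tested. Covariation passed in 16 pairs, in 17 with the length trend removed and in 14 without those libraries. Depth limits BGLU30, whose highest level was 1.23 CPM. ASN1 had 4 counts in 1 start library, and the part of depth in its errors was not tested.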
